A study of Mus musculus with 4 samples.

Results

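A group of 10 target genes of the transcription factor p53, which act in cell cycle arrest, in feedback on p53 and in the control of growth, was described in Beta-TC-6 cells after transfection of siRNA against NF90. They were Ccng1, Zmat3, Trp53inp1, Plk2, Mdm2, Sesn1, Sesn2, Btg2, Phlda3 and Rrm2b, 10 of the 22180 genes that could be tested. They were named as a group with results of these data already known. Their probe sets were chosen by the highest mean over the 4 arrays among those that carry the symbol alone, and each of the 10 genes had 1 such probe set, so no measured value decided between probe sets.

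Beta-TC-6 is an established mouse pancreatic beta cell line that secretes insulin. As background, it was derived from an insulinoma of a transgenic mouse in which the insulin promoter drives the large T antigen of simian virus, a protein that binds p53 and the Rb family. NF90 binds double-stranded RNA. The siNF90 group received a mixture of 3 RNAi duplexes against NF90 and the siNTC group a negative control siRNA, both with a lipid reagent, in medium with 25 mM glucose and 15% serum. RNA was measured on Affymetrix Mouse Gene 2.1 ST arrays, 2 per group, which probe whole transcripts in a single colour. Separate cultures are not mentioned in the labels. The errors and p-values therefore cover only the spread among these 4 arrays, and that spread may be technical. The labels name no batch or scan date, and the number of arrays limits the precision.

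p53 is held low by the ubiquitin ligase Mdm2 and is stabilised when DNA is damaged or when ribosomes or nucleotide pools are disturbed. It then activates genes that stop the cell cycle, repair DNA, slow growth or start cell death. Several of its targets, Mdm2 first among them, act back on p53, which limits how long the response lasts. The transcript of p53 itself was not analysed here, and siNF90 stands for the label of the arrays throughout.

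Across all genes, the siNTC arrays correlated with each other at r = 0.9927 and the siNF90 arrays at r = 0.9919; genes are not independent replicates. The 2 siNTC arrays differed by a median of 0.15 per gene on the log2 scale, as did the siNF90 arrays. The median difference between the groups over all genes was 0.02, and 53.6% of genes were higher in siNF90. Of the beta cell markers, Ins2 stood at 7.98 and 8 in siNTC and at 7.88 and 8.01 in siNF90, Pdx1 at 6.85 and 6.86 against 6.83 and 7.03, and Nkx6-1 at 5.68 and 5.69 against 6.08 and 6.19 (log2). Among the 12 beta cell markers listed, 6 were higher and 6 lower. Slc2a2 differed most, at 6.0 and 5.8 in siNTC against 4.78 and 4.86 in siNF90.

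Promoter windows were searched for p53 sites because the 10 genes are known as p53 targets. RefSeq windows (GRCm38.p6) were matched by symbol for 7 of the 10 genes, in 8 windows, since Sesn1 has 2 start sites. Zmat3, Trp53inp1 and Rrm2b had no matched window and were not searched. The p53 site is made of a pair of half-sites of 10 bases. The 250 bases before each start were searched for such a pair with a spacer of 0 to 13 bases. The consensus reads alike on both strands, so a single pass covers both. The Ccng1 window is shown whole, 5′ to 3′ (chr11:40755287-40755536, minus strand), because its pair of half-sites departs from the consensus at only 1 of 20 bases. Capitals mark the half-sites.
Ccng1: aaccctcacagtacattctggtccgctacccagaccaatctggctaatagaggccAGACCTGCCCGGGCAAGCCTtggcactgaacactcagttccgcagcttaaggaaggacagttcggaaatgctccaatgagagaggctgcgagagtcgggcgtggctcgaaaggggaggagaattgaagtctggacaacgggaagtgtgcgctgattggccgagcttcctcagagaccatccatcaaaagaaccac

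The Ccng1 pair has no spacer, lies 195 to 176 bases before the start (chr11:40755462-40755481) and contains 1 half-site without a mismatch. Of 32841 windows of this length, 0.898% held a pair with at most 1 mismatch. This is the share for a single window. The Ccng1 pair is the closest found in 8 windows, and a match this close is more frequent in the best of 8. The closest pairs in the other windows are shown for comparison, with the spacer in lower case.
Sesn1, the second start in genome order: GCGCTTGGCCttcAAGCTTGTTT
Mdm2: GAACTTGCCTagCGACCATTGC
Btg2: ACGGGAGTCCgGTGCTTGTTC
Sesn2: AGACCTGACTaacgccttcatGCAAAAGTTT
Phlda3: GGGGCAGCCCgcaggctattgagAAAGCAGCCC
Plk2: GCGCGTATTTaAAGCTTCGCT
Sesn1, the first start: GGGAACGGTCgaGAACCAGCCG

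The second Sesn1 window (chr10:41887253-41887275, plus strand) held a pair with 2 mismatches, a closeness that 8.46% of windows reach. The pairs of Mdm2 (chr10:117710923-117710944, minus strand), Btg2 (chr1:134079329-134079349, minus strand), Sesn2 (chr4:132510673-132510703, minus strand) and Phlda3 (chr1:135765951-135765983, plus strand) had 4 mismatches, a closeness that 85.5% of windows reach. Those of Plk2 (chr13:110395013-110395033, plus strand) and of the first Sesn1 start (chr10:41810534-41810555, plus strand) had 5, which 99.1% reach. An exact half-site stood in 3 of the 8 windows, those of Ccng1, Mdm2 and the second Sesn1 start, and in 7.13% of all windows. These are matches of letters in a short window. Binding was not measured, and sites elsewhere in a gene were not searched.

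Of the 10 genes, 8 had a higher mean in siNF90 and 2 a lower one, with a median log2 difference of 0.25 against 0.02 over all genes tested. Zmat3 and Ccng1 differed most, each by nearly a factor of 2, followed by Trp53inp1 and Plk2. Mdm2, Sesn2, Phlda3 and Btg2 had small positive differences, Sesn1 had none that could be seen, and Rrm2b was lower. In 7 genes the groups did not overlap and siNF90 was higher, which held for 21.9% of all genes, and in 1 gene, Rrm2b, they did not overlap and siNF90 was lower, which held for 17.9%. Among the 11472 genes whose higher group mean reached the median level of 1.84, as it did for all 10 genes here, these shares were 26.3% and 21.8%. The group was named with these differences known, so its counts are a description.

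**Figure D1:**
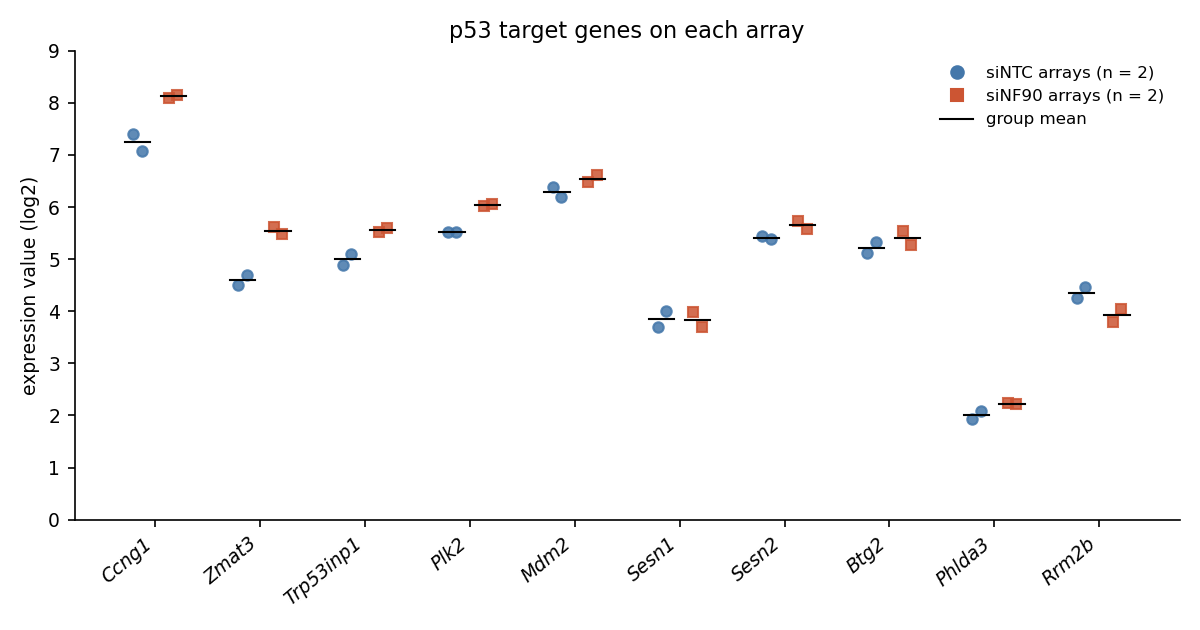
Expression value (log2) of each of the 10 genes on every array, with siNTC arrays as circles, siNF90 arrays as squares and the group mean as a line. The groups lie apart for 8 genes and overlap for Sesn1 and Btg2; heights of different genes come from different probe sets and are not compared.

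No gene passed limma's test over all genes at an adjusted p under 0.05 (0% of 22180 genes), where the lowest adjusted value was 0.342. Without adjustment, at p under 0.05, 4 of the 10 genes were higher (Zmat3, Ccng1, Plk2 and Trp53inp1), as were 5.87% of all genes. Rrm2b was lower at that level, as were 4.41%. When the variance prior of the fit was allowed to follow the level of the gene, Ccng1 (adjusted p = 0.0153) and Zmat3 (0.0222) passed over all genes, 2 of 10 where 0.234% of all genes passed as higher. With 2 arrays in each group, the smallest two-sided p of an exact permutation test is 0.33, and it was not used for single genes.

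**Figure D2:**
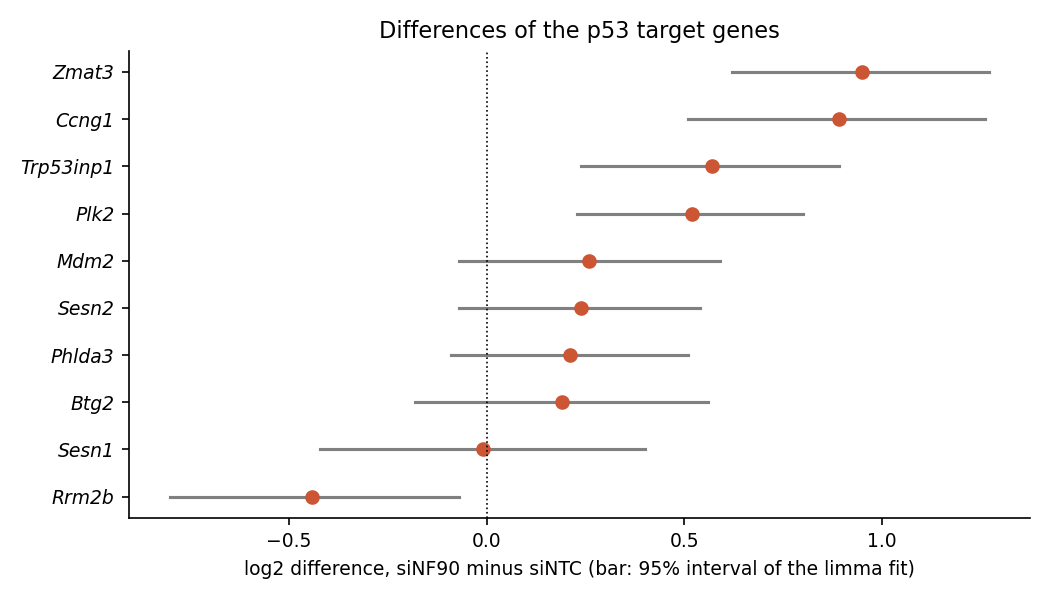
Log2 difference of each gene, siNF90 minus siNTC (points), with the 95% interval of the limma fit (bars), in order of size. The intervals of Zmat3, Ccng1, Trp53inp1 and Plk2 lie above 0, that of Rrm2b lies below 0, and those of the other 5 genes include 0.

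Among the genes of cell cycle arrest, Ccng1 encodes cyclin G1, which recruits a phosphatase to Mdm2 and so also takes part in the feedback on p53. It stood at 7.41 and 7.08 on the siNTC arrays and at 8.10 and 8.16 on the siNF90 arrays (log2). The siNTC arrays lay further apart than the siNF90 arrays, but the nearest arrays of the groups were still 0.69 apart, a factor of 1.61. The difference of the means was 0.89 ± 0.15 (log2, SE of the fit, n = 2 each; 95% interval 0.51 to 1.26), a 1.85-fold higher level (limma, adjusted p = 0.357). A larger positive difference was seen in 0.144% of all genes, and in 0.279% of those at or above the median level.

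Plk2 encodes a polo-like kinase that acts at centrioles and in checkpoint control. It was measured at 5.53 and 5.52 in siNTC and at 6.02 and 6.06 in siNF90. The arrays of a group nearly coincided and the nearest arrays of the groups were 0.49 apart. This is a difference of 0.52 ± 0.12 (95% interval 0.23 to 0.80), 1.43-fold higher (adjusted p = 0.357).

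Btg2 belongs to the BTG and TOB family of antiproliferative proteins, which bind the deadenylase complex that shortens poly(A) tails. Its values were 5.11 and 5.32 in siNTC against 5.54 and 5.27 in siNF90. The groups overlapped, because the second siNF90 array lay below the second siNTC array. The difference was 0.19 ± 0.15 (95% interval -0.18 to 0.56), and it was 0.06 without the first siNF90 array and 0.33 without the second.

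The next genes act on p53 itself or on the RNAs it controls. Zmat3 (also Wig1) encodes a zinc finger protein that binds RNA and affects the stability and splicing of target transcripts. It stood at 4.51 and 4.69 in siNTC and at 5.61 and 5.48 in siNF90, with 0.79 between the nearest arrays, the widest gap among the 10 genes. The difference was 0.95 ± 0.13 (95% interval 0.62 to 1.27), a 1.93-fold higher level (adjusted p = 0.344), and 0.104% of all genes, or 0.2% of those at or above the median level, had a larger positive difference. A further probe set lists Zmat3 together with another symbol and was not used.

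Trp53inp1 encodes a nuclear protein that promotes phosphorylation of p53 and also takes part in autophagy. Its values were 4.89 and 5.10 in siNTC against 5.53 and 5.59 in siNF90. The groups lay apart, with 0.43 between the nearest arrays. The difference was 0.57 ± 0.13 (95% interval 0.24 to 0.89), 1.48-fold higher (adjusted p = 0.357).

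Mdm2, the ubiquitin ligase that marks p53 for degradation, stood at 6.38 and 6.19 in siNTC and at 6.48 and 6.61 in siNF90. The groups did not overlap, but the gap of 0.10 between their nearest arrays was smaller than the distance between the siNTC arrays. Its difference was 0.26 ± 0.13 (95% interval -0.07 to 0.59), 1.2-fold (adjusted p = 0.566). A larger positive difference than that of Mdm2 was seen in 12.2% of all genes and in 15.6% of those at or above the median level.

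The next 3 genes act on growth signalling or oxidative stress. The sestrins Sesn1 and Sesn2 restrain the kinase complex mTORC1 and protect against oxidants. Sesn2 was at 5.44 and 5.39 in siNTC and at 5.73 and 5.57 in siNF90, a difference of 0.24 ± 0.12 (95% interval -0.07 to 0.54) with 0.13 between the nearest arrays (adjusted p = 0.582).

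Sesn1 stood at 3.70 and 4 in siNTC and at 3.99 and 3.69 in siNF90. Each group held a high and a low array, and the difference was -0.01 ± 0.17 (95% interval -0.42 to 0.40). Its sign turned with the scaling, to 0.01 with arrays centred on their medians and 0.02 after quantile normalization. The interval does not leave out a difference as large as that of Sesn2, so the data do not show that these sestrins responded differently.

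Phlda3 encodes a small protein with a pleckstrin homology domain that competes with the kinase Akt for membrane lipids. Its values were 1.94 and 2.09 in siNTC against 2.24 and 2.21 in siNF90. The difference was 0.21 ± 0.12 (95% interval -0.09 to 0.51) with 0.12 between the nearest arrays (adjusted p = 0.619). Of the 10 genes, Phlda3 had the values nearest to the median level of all genes. Background was not given for these values, so detection cannot be called, and background in these values would make a fold understate the change.

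Rrm2b (also p53R2) encodes the p53-inducible small subunit of ribonucleotide reductase, which supplies nucleotides for DNA repair and for mitochondrial DNA. It was the gene of the group whose siNF90 values both lay below both siNTC values, at 4.25 and 4.46 in siNTC and at 3.80 and 4.04 in siNF90. The groups lay apart, with 0.21 between the nearest arrays. The difference was -0.44 ± 0.15 (95% interval -0.80 to -0.07), a 1.35-fold lower level (adjusted p = 0.439), and 2.62% of all genes, or 3.97% of those at or above the median level, had a larger negative difference.

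**Figure D3:**
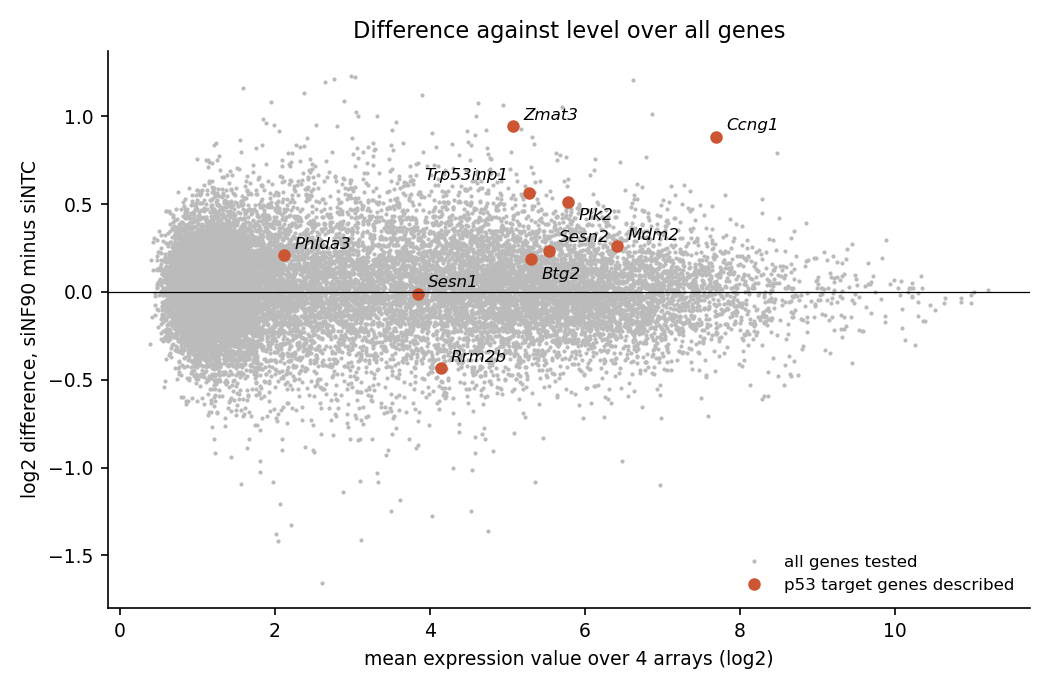
Log2 difference, siNF90 minus siNTC, against the mean value over the 4 arrays (log2) for all 22180 genes tested (grey) and the 10 p53 target genes (labelled). Ccng1 and Zmat3 lie at the upper edge of the cloud at their level, and Sesn1, Btg2 and Mdm2 lie within it.

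The related genes of the same families were set beside the 10 genes, from a list of 21 paralogs of which 20 were measured. Of these 8 were higher and 12 lower, with a median difference of -0.09, where 53.6% of all genes were higher. The groups did not overlap in 8, with siNF90 higher in 3 (21.9% of all genes) and lower in 5 (17.9%). None passed over all genes, as no gene did. The pairing of a gene with a paralog was chosen after the values were seen. No paralog was paired with Zmat3. Its measured relatives Zmat1, Zmat2, Zmat4 and Zmat5 differed by -0.14 ± 0.17, 0.04 ± 0.13, 0.09 ± 0.13 and 0.08 ± 0.15. Probe sets of different genes differ in how strongly they bind, so each log2 ratio within an array is given relative to its mean over the siNTC arrays.

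Ccng2, the paralog of Ccng1, stood at 5.19 and 5.09 in siNTC and at 5.09 and 4.6 in siNF90, a difference of -0.30 ± 0.19. Relative to its siNTC mean, the log2 ratio of Ccng1 to Ccng2 was 0.12 and -0.12 on the siNTC arrays and 0.91 and 1.46 on the siNF90 arrays, a change of 1.18 on average. Trp53inp2 differed by -0.23 ± 0.13, and the ratio of Trp53inp1 to it was -0.09 and 0.09 in siNTC and 0.87 and 0.73 in siNF90.

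The small subunits of ribonucleotide reductase differed in opposite directions. Rrm2, the subunit of cells in S phase, stood at 6.01 and 6.17 in siNTC and at 6.36 and 6.67 in siNF90, a difference of 0.43 ± 0.15. Relative to its siNTC mean, the log2 ratio of Rrm2b to Rrm2 was -0.03 and 0.03 on the siNTC arrays and -0.83 and -0.90 on the siNF90 arrays. The change was -0.86 on average, and the arrays of either group lay at most 0.07 apart in this ratio. Since the pair was chosen after the values were seen, the size of the change is only a description. The large subunit Rrm1 was at 7.96 and 7.99 against 7.67 and 7.58, a difference of -0.35 ± 0.12. None of these 3 genes passed over all genes (adjusted p = 0.439 for Rrm2b and Rrm1 and 0.455 for Rrm2).

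Mdm4, the partner of Mdm2 in holding down p53, differed by -0.07 ± 0.13, and the log2 ratio of Mdm2 to Mdm4 lay 0.28 and 0.37 above its siNTC value on the siNF90 arrays. Sesn3, a sestrin that FoxO factors control, differed by -0.24 ± 0.12. The ratio of Sesn2 to Sesn3 was higher on both siNF90 arrays, by 0.47 on average, while that of Sesn1 to Sesn3 overlapped between the groups. Plk3 differed in the same direction as Plk2, at 6.86 on both siNTC arrays and at 7.35 and 7.04 in siNF90. The ratio of Plk2 to Plk3 was 0.01 and -0.01 in siNTC and 0.01 and 0.36 in siNF90, so the groups met at a tied value. Btg1 and Phlda1 differed by 0.12 ± 0.13 and 0.20 ± 0.30, close to the values of Btg2 and Phlda3.

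**Figure D4:**
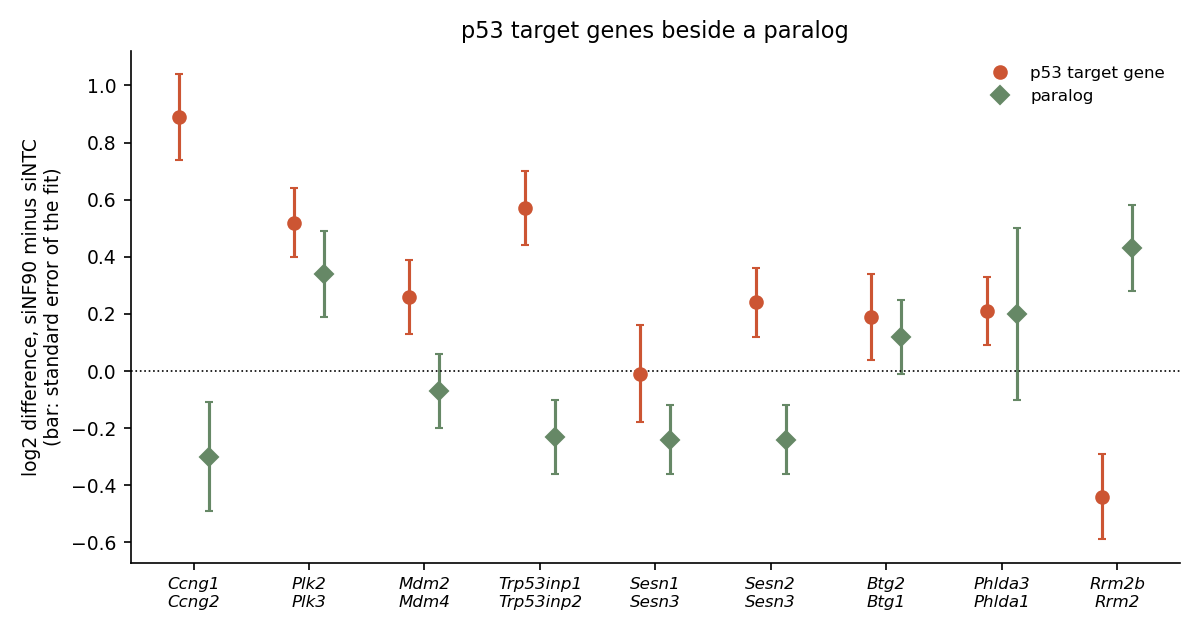
Log2 difference, siNF90 minus siNTC, of each p53 target gene except Zmat3 (circle) and of a paralog (diamond), with the standard error of the limma fit (n = 2 arrays a group). The points of Ccng1, Trp53inp1, Mdm2 and Sesn2 lie above 0 with their paralogs below it, and Rrm2b lies below 0 with Rrm2 above it.

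Other targets of p53 in arrest, repair and metabolism were listed with results of these data known, so their counts are a description. Of 20 listed, 17 were measured, with 16 higher, 1 lower and a median difference of 0.17, where 53.6% of all genes were higher. Of the 17, 4 lay below the median level in both groups. None passed over all genes, as no gene did. The groups did not overlap in 13 of the 17, with siNF90 higher in 12 (21.9% of all genes) and lower in 1 (17.9%). At limma's unadjusted p under 0.05, 8 of the 17 were higher (5.87% of all genes) and 1 lower (4.41%). Cdkn1a, which encodes the cyclin-dependent kinase inhibitor p21, stood at 6.33 and 6.39 in siNTC and at 7.42 and 7.33 in siNF90, 2.02-fold higher. It was the gene of this list that passed with a variance prior that follows level (adjusted p = 0.00633).

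Polk, a DNA polymerase that copies past lesions, was at 3.84 and 3.97 against 4.2 and 4.46, a difference of 0.43 ± 0.14. Ddit4, an inhibitor of mTORC1 that stress induces, was at 2.42 and 2.39 against 2.99 and 2.68, also 0.43 (SE 0.15). The gene of this list that was lower was Ptprv, at -0.41 ± 0.12, named after its value was seen; all its values lay below the median level of all genes.

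Of 12 listed targets of p53 that start apoptosis, 11 were measured, with 6 higher, 5 lower and a median of 0.07. None passed over all genes, and 53.6% of all genes were higher. At limma's unadjusted p under 0.05, 4 of the 11 were higher and 0 lower, where these shares of all genes are 5.87% and 4.41%. The groups did not overlap in 7, with siNF90 higher in 4 and lower in 3, where these shares of all genes are 21.9% and 17.9%. Bid, which carries the death receptor signal to mitochondria, differed by 0.63 ± 0.21, from values of 1.51 and 2.09 in siNTC to 2.38 and 2.48 in siNF90. Pidd1, a scaffold that activates caspase, differed by 0.40 ± 0.13, and the death receptor Tnfrsf10b by 0.37 ± 0.13. Both Bid (siNTC mean 1.8) and Tnfrsf10b (1.7) reached the median level of 1.84 through their siNF90 values, so they could be named only as higher. The difference between these targets and the 10 genes was not tested.

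Of 23 regulators of p53, 9 were higher and 14 lower, with a median of -0.06, where 53.6% of all genes were higher. None passed over all genes. The groups overlapped in 14 of them, and siNF90 lay higher without overlap in 3 and lower in 6, where these shares of all genes are 21.9% and 17.9%. Hipk2, a kinase that phosphorylates p53 and works with Trp53inp1, was at 5.32 and 5.37 in siNTC and at 4.81 and 4.75 in siNF90, a difference of -0.57 ± 0.12. Prkdc, the catalytic subunit of the DNA-dependent protein kinase, was at 4.45 and 4.34 against 4 and 3.78, a difference of -0.51 ± 0.14. Daxx, a chaperone of histone H3.3 that also binds Mdm2, was at 4.2 and 4.26 in siNTC and at 4.73 on both siNF90 arrays. These 3 were named for their large differences, and their adjusted p-values lay between 0.357 and 0.401.

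**Figure D5:**
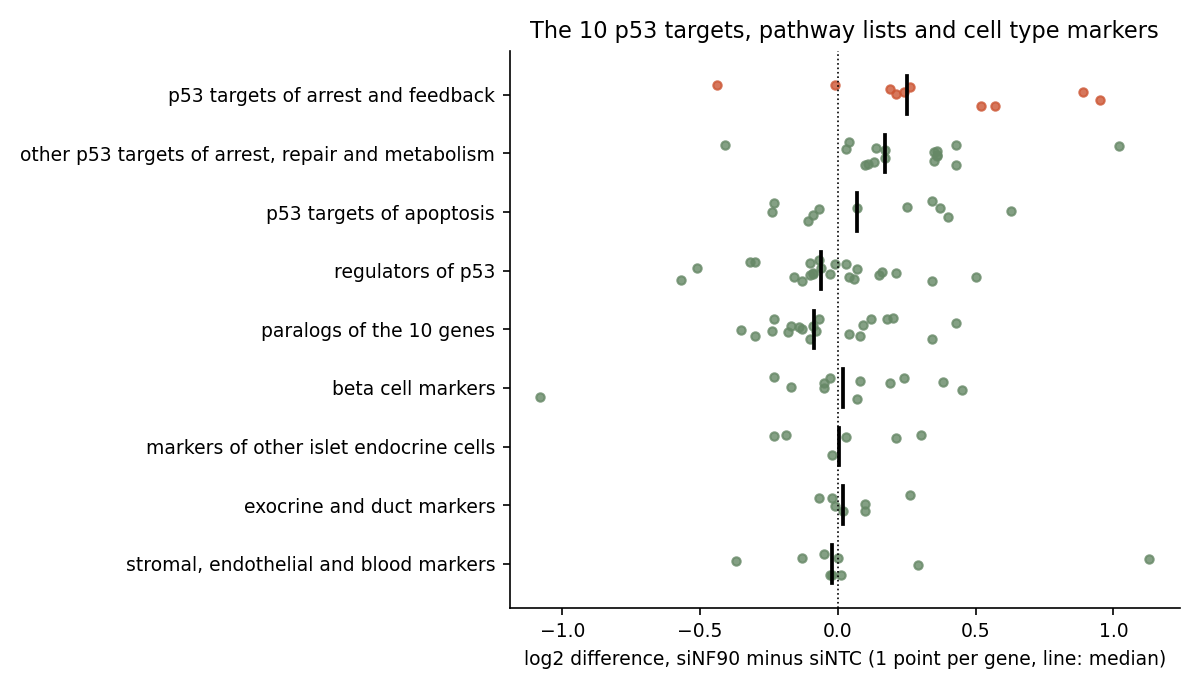
Log2 difference, siNF90 minus siNTC, of every measured gene (points) in the group of 10 and in the other lists, with the median of each list as a line. The median of the 10 genes was 0.25 and that of other p53 targets of arrest, repair and metabolism 0.17, while the remaining lists had medians between -0.09 and 0.07.

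Markers of other cell types were read beside these values. The stromal, endothelial and blood list had 9 measured genes, 8 of them below the median level in both groups, and its summed log2 level lay at 12.61 to 12.93 in siNTC and 13.55 to 13.67 in siNF90. The macrophage lysosomal protein gene Cd68 was at 3.32 and 3.35 against 4.44 and 4.48. Without it, a choice made after its value was seen, the other 8 genes summed to 9.29 and 9.58 in siNTC and to 9.11 and 9.19 in siNF90. All 8 lie below the median level, and their sum can hide opposite differences, such as -0.37 ± 0.14 for Cdh5 and 0.29 ± 0.15 for Col1a1. The leukocyte marker Ptprc stood at 0.92 and 1.33 against 1.12 and 1.10, and the macrophage marker Adgre1 at 1.04 and 1.06 against 1.06 and 0.98, all below the array medians of 1.65 to 1.68. The summed level of 6 other islet endocrine markers lay at 25.28 to 25.46 and 25.18 to 25.76, and that of 7 exocrine and duct markers at 12.69 to 14.19 and 13.40 to 14.25. The largest differences in these lists were 0.30 ± 0.15 for Irx2, -0.23 ± 0.13 for Sst (somatostatin), 0.21 ± 0.14 for Gcg (glucagon), 0.26 ± 0.14 for Bhlha15 and 0.10 ± 0.13 for Krt7. The beta cell markers summed to 83.04 to 83.46 and 82.99 to 83.11 over 12 genes, of which Slc2a2, the glucose transporter GLUT2, was 2.11-fold lower and Mafa, a factor that activates the insulin gene, differed by 0.38 ± 0.15. What part changes in cell makeup have in the values of the 10 genes was not tested. In bulk RNA, a change in the number of cells of a kind and a change in RNA per cell cannot be told apart.

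The genes whose 4 values, each taken from the gene's siNTC mean, lay nearest to those of Zmat3 were Glipr2 (Euclidean distance 0.091 on the log2 scale), Slc16a3 (0.096) and Npnt (0.1), among 11104 genes with a mean at or above the median level. Cdkn1a was the fifth nearest, at 0.133, and Ccng1 ranked 65. The nearest to Ccng1 were Ralgds (0.177), Maged1 (0.191) and AW551984 (0.194). Their first siNTC array was likewise the higher of the pair, which follows from the choice, since the distance includes the siNTC values. Trp53inp1 and Plk2 ranked 252 and 219 from Ccng1. A distance over 4 arrays is a description of these arrays.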

How the data were processed

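Values of 4 arrays (2 siNTC, 2 siNF90) were analysed. The authors deposited values for 41345 probe sets, and the submitters' processing notes name Transcriptome Analysis Console as their tool. The version, background correction and normalization were not given in the sources used here. The deposited values were taken as log2 from their range, which reaches 12.01, since no log base is stated. Array medians were 1.65 to 1.68. The platform annotation supplied the names: 23521 carried 1 symbol, 1814 several and 16010 none here, which left 22180 genes at 1 probe set each, the highest mean.

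Differences were fitted over all genes, before any filter, with limma 3.58.1 in R 4.3.3 (lmFit, eBayes without a trend, Benjamini-Hochberg, threshold 0.05). The fit had 2 residual and 3.92 prior degrees of freedom. No set test was run. All 10 genes passed into the fit with values on every array. The genes and lists were chosen with earlier results of these data known. The text names the 10 genes, Cdkn1a and, per list, up to 3 genes with the largest difference at or above the median level of 1.84. Other names were chosen after their values were seen. Promoter windows came from RefSeq. The depletion of the siRNA target is not reported here.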

Additional observations from a re-analysis of the deposited data

How the results depend on the processing

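Letting the variance prior follow the level of the gene moved the count of genes past the threshold from 0 to 101 over all genes, from 0 to 2 for the 10 p53 targets and from 0 to 3 for the other listed genes (Cdkn1a, Slc2a2 and Cd68). It brought Ccng1 and Zmat3 past the threshold. The other alternatives gave 0 calls in each of these 3 counts: the replicate block, a robust prior, a filter on level, median centring, quantile normalization, averaged probe sets, a fit of every probe set and leaving out each array, which leaves a group with a single array assumed to vary like the others. The replicate numbers are not stated to pair the arrays, and same-numbered arrays did not deviate together (correlation of -0.02 across genes). With the replicate block the adjusted p was 0.591 for both Zmat3 and Ccng1. Of the 10 genes, 8 or 9 were higher under every alternative, with a median of 0.25 to 0.32. Sesn1 changed sign, to 0.02 with quantile normalization, 0.01 with median centring and a range of -0.16 to 0.14 without 1 array. Without 1 array Zmat3 ranged from 0.86 to 1.04, Ccng1 from 0.72 to 1.05, Trp53inp1 from 0.46 to 0.67, Plk2 from 0.5 to 0.54, Mdm2 from 0.17 to 0.36, Sesn2 from 0.16 to 0.32, Phlda3 from 0.14 to 0.29, Btg2 from 0.06 to 0.33 and Rrm2b from -0.56 to -0.32.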
